A study of Mus musculus with 12 samples.

Results

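Kidneys of mice without functional farnesoid X receptor (FXR, gene Nr1h4) were compared with kidneys of wild-type mice after both had received GW4064, a synthetic FXR agonist. Levels are in TPM, transcript abundance scaled for transcript length and library depth. The 6 libraries of this comparison were 3 labelled FXR KO and 3 labelled wild type, and a gene was tested if it reached 1 TPM in at least 3 of them. Of 24532 genes in the tables, 14127 met that rule. Wild-type mice are labelled C57BL/6 and knockout mice Nr1h4tm1Gonz/J, a line with a targeted germline disruption, so the receptor was disrupted in all organs and not in the kidney alone. All mice were fasted overnight, and GW4064 acted for 6 h. A further 3 wild-type and 3 knockout libraries had received vehicle in place of GW4064, and they give the genotype difference without agonist. Their values enter no mean of the GW4064 comparison, but all 12 libraries share 1 estimate of spread. The sources used here give no dose, age, sex or hour of collection and do not say whether the wild-type mice were littermates, so genotype and strain background cannot be told apart. The labels do not say that the 3 libraries of a group are separate animals, and p-values measure the spread between these libraries.

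FXR is a nuclear receptor that binds bile acids. It pairs with the retinoid X receptor on DNA and raises transcription of bile acid exporters, and in liver it lowers bile acid synthesis through the small repressor Nr0b2 (SHP). In kidney it is found mainly in tubule cells. The series title places the study in cisplatin injury and ferroptosis, an iron-dependent cell death driven by oxidation of membrane lipids, and no library analysed here was labelled as given cisplatin.

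Mapped sequence in the 6 libraries was 3.0 to 3.85 gigabases. Nr1h4 itself was lower in the knockout but not absent (mm10 chr10:89454234-89533622). It measured 189, 206 and 242 TPM in the wild-type and 105, 131 and 134 TPM in the knockout GW4064 libraries, and the groups did not overlap (log2 -0.78 ± 0.11 SE, limma adjusted p = 0.000424). The whole-gene value does not separate intact from disrupted transcripts. The 20 markers of proximal tubule cells were all detected, and their sum was 79189 to 83430 TPM in wild type and 80745 to 85996 TPM in the knockout. Kap, 1 of the 20, held 5.61 to 6.12% of all TPM in wild type and 5.36 to 6.01% in the knockout. This transcript made up most of each sum, which therefore says little of the other markers. Within the list 9 of the 20 were lower and 4 higher in the knockout under GW4064, and 1 and 1 on vehicle. Under GW4064 that is 65.0% called, against 19.1% of all genes tested.

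Under GW4064, 2700 of the 14127 genes (19.1%) differed between the genotypes (limma, Benjamini-Hochberg adjusted p under 0.05). Of these, 1028 were higher (7.28% of genes tested) and 1672 were lower (11.8%) in the knockout, and 263 differed by at least 2-fold, 108 higher and 155 lower. In 2671 of the called genes the 3 knockout values did not overlap the 3 wild-type values, against 37.2% of all genes tested (14.1% higher and 23.1% lower). The share of genes called grew with level, from 9.04% below a mean of 5 TPM to 35.0% at 100 TPM and above. The split by direction depended on scaling. After median-of-ratios scaling 1259 genes were higher and 1322 lower, while the median of all genes went from -0.03 to 0.00 on the log2 scale. Without wild-type GW4064 replicate 1 the count fell to 1745. In 88 of the genes tested, no library of 1 genotype reached 1 TPM, so that they passed the filter only through the genotype where they were high, and 48 of these were called. Zdhhc19, Amdhd1, Cfhr2 and Npas2 are among the 48, so their values below are a description with no test.

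On vehicle, 1901 genes (13.5%) differed between the genotypes, 464 higher (3.28%) and 1437 lower (10.2%), and that split turned to 839 higher and 557 lower after median-of-ratios scaling. A set of 866 genes was called in the same direction in both, which is 32.1% of the calls under GW4064 and 45.6% of those on vehicle, and 32 genes were called in opposite directions. The interaction, which tests whether the genotype difference under GW4064 is another size than on vehicle, was called for 469 genes (3.32%), 217 with a higher value under GW4064 (1.54%) and 252 with a lower one (1.78%), and 376 of them were among the 2700. Of the 155 genes at least 2-fold lower, 68 (43.9%) were also lower on vehicle and 72 (46.5%) were called in the interaction. Of the 108 genes at least 2-fold higher, 62 (57.4%) were also higher on vehicle and 19 (17.6%) were called in the interaction. The difference between these shares was not tested. The vehicle count was 974 and 930 without wild-type vehicle replicates 1 and 3, and 1168 and 1152 without knockout vehicle replicates 1 and 2. The interaction count was 292 and 262 without wild-type vehicle replicates 1 and 3, 220 and 299 without wild-type GW4064 replicates 1 and 2, 279 without knockout GW4064 replicate 3 and 239 without knockout vehicle replicate 1.

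**Figure D1:**
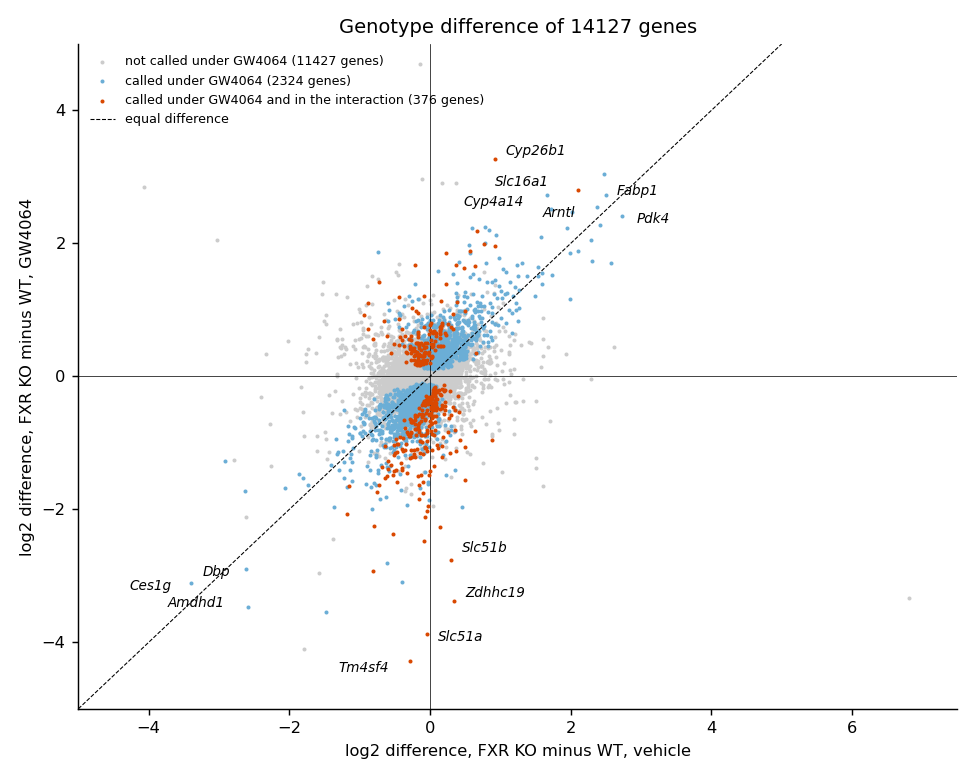
Each dot is 1 of 14127 genes, placed by its log2 difference between knockout and wild type on vehicle (x axis) and under GW4064 (y axis), with 376 genes in orange that were called both under GW4064 and in the interaction. Slc51a, Slc51b, Zdhhc19 and Tm4sf4 lie near 0 on the x axis and between -2.76 and -4.29 on the y axis, while Arntl, Pdk4, Dbp and Ces1g lie near the line of equal difference.

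The largest decreases under GW4064 included known FXR target genes and a neighbour of one. Slc51a and Slc51b encode the 2 subunits of the exporter that moves bile acids and steroids out of epithelial cells through the basolateral membrane. Slc51a (chr16:32475578-32487879) measured 514, 427 and 431 TPM in wild type and 28.6, 33.2 and 30.1 TPM in the knockout, with no overlap. That is 14.7-fold lower (log2 -3.87 ± 0.12 SE, limma adjusted p = 9.48e-09, n = 3 per group). On vehicle it stood at 48.1, 41.9 and 36.4 TPM in wild type and 34.4, 41.5 and 46.5 TPM in the knockout, where the groups overlapped, and the interaction was -3.83 ± 0.17 (adjusted p = 1.26e-06). Slc51b (chr9:65412753-65422773) gave 382, 349.5 and 303 TPM against 45.4, 61.3 and 45.99 TPM, again without overlap (log2 -2.76 ± 0.13, limma adjusted p = 1.77e-07). Its vehicle values were 56.9, 45.9 and 44.9 TPM in wild type and 60.6, 65.1 and 55.3 TPM in the knockout. Both subunits in the knockout under GW4064 were thus at the level of the vehicle libraries or below it.

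The promoter windows of both subunits are shown because both genes are known FXR targets whose genotype difference was called under GW4064 and in the interaction. They run from 250 bases before to 50 bases after the annotated start (RefSeq, GRCm38.p6, minus strand, chr16:32487830-32488129 and chr9:65422724-65423023). Capitals mark the nuclear receptor half-site AGGTCA on either strand and, in Slc51a, the E-box CACGTG bound by clock and other helix-loop-helix factors.
Slc51a: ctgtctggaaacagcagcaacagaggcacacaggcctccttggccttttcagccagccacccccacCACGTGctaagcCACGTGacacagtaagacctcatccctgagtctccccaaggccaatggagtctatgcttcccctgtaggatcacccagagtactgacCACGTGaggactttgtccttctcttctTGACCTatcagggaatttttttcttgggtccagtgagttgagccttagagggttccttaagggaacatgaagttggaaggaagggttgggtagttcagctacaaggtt
Slc51b: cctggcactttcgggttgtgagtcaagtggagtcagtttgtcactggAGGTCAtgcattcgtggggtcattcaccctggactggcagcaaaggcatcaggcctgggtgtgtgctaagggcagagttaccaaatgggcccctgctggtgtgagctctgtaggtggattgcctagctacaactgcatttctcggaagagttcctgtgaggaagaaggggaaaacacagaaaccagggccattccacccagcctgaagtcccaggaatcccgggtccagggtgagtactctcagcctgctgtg
Each window held 1 half-site, which 12.8% of the windows of tested genes hold, and Slc51a held 3 E-boxes, a motif found in 9.65%. The perfect inverted repeat of the FXR response element (GGTCA, any base, TGACC) was in 13 of 32851 windows (0.0396%) and in 0 windows of called genes, and these short windows do not cover distal elements.

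Zdhhc19, a palmitoyltransferase gene, lies 8402 bases from Slc51a on the other strand (chr16:32496281-32507214). It gave 7.57, 6.09 and 5.87 TPM in wild type and 0.371, 0.19 and 0 TPM in the knockout, and was at most 0.248 TPM in each of the 6 vehicle libraries. It was therefore expressed above 1 TPM in the wild-type GW4064 libraries alone. Of the 3 other tested genes within 100 kb of Slc51a, 1 was called. Pcyt1a, a phospholipid synthesis gene that ends 513 bases from Slc51a on its other side, did not pass (log2 0.15 ± 0.06, limma adjusted p = 0.128), and Tctex1d2 differed by -0.34 ± 0.11 (adjusted p = 0.0432), a call lost without any 1 of the 6 GW4064 libraries or without wild-type vehicle replicate 2 (adjusted p 0.0508 to 0.137). Of 6 other tested genes within 100 kb of Slc51b, 2 were called. The translation initiation gene Mtfmt was lower (log2 -0.43 ± 0.08) and Clpx, a mitochondrial chaperone gene 82095 bases away, was higher (log2 1.18 ± 0.09, 129, 135 and 125 against 258, 283 and 346 TPM, limma adjusted p = 4.07e-06). Rasl12, which overlaps Slc51b on the other strand, did not pass (log2 -0.32 ± 0.11, limma adjusted p = 0.0536), but did without wild-type GW4064 replicate 1 (0.0402).

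Tm4sf4, which encodes a membrane protein with 4 spans of the tetraspanin-like family, had the largest log2 decrease of the genes called at the pseudocount of 0.5, though not at 0.1, where Amdhd1 and Cfhr2 were lower. It gave 35.05, 25.2 and 18.02 TPM in wild type and 1.18, 0.866 and 0.49 TPM in the knockout (log2 -4.29 ± 0.31, limma adjusted p = 4.06e-06). Each vehicle library had between 0.521 and 1.61 TPM, so the wild-type GW4064 libraries were the high ones. B4galt5, a galactosyltransferase of glycolipid synthesis, measured 129.8, 116 and 125 TPM and 18.3, 26.1 and 21.6 TPM (log2 -2.48 ± 0.10), beside 29.9 to 34.5 TPM on vehicle. Etnppl, the phospholyase that breaks down phosphoethanolamine, stood at 24.4, 24.02 and 24.9 TPM in wild type and 2.25, 5.43 and 6.42 TPM in the knockout (log2 -2.37 ± 0.26). In all 3 genes the groups did not overlap and the interaction was called (limma adjusted p = 0.000824, 9.6e-06 and 0.0222).

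Genes of plasma proteins best known from liver were among the decreases. The fibrinogen beta chain gene Fgb gave 13.7, 12.3 and 8.61 TPM against 0.791, 1.26 and 1.14 TPM (log2 -2.93 ± 0.22), and Serpinc1, which encodes antithrombin, gave 7.80, 5.72 and 5.13 TPM against 1.17, 0.782 and 0.767 TPM (log2 -2.25 ± 0.21). Complement C3 measured 39.3, 47.2 and 22.8 TPM in wild type and 10.3, 9.01 and 8.81 TPM in the knockout (log2 -1.84 ± 0.20). Wild type was higher in every library in these 3 genes, and the interaction was called in each (limma adjusted p = 0.00437, 0.0211 and 0.00973). On vehicle Fgb and Serpinc1 were lower as well (-0.81 ± 0.22 and -0.79 ± 0.21), and C3 did not pass. Of 12 tested liver markers 4 were lower (Fgb, C3 and Ambp among them) and 1 higher (Apoa2). That is 41.7% called, against 19.1% of all genes tested. Ambp differed by -0.85 ± 0.20 and Apoa2 by 0.62 ± 0.14. The summed level of the 15 listed was 280.0 to 338 TPM in wild type and 194 to 325 TPM in the knockout. Its part in these differences was not tested.

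Among 26 genes listed as FXR targets of liver, gut or kidney, 20 were tested, of which 7 were lower and 3 higher, Cyp4a14 among them. Besides those above, Osgin1, an oxidative stress growth inhibitor, was lower at 29.8, 44.8 and 31.5 against 155, 127 and 71.8 TPM (log2 -1.68 ± 0.27, limma adjusted p = 0.00135). Nr0b2, the repressor that carries much of the FXR effect in liver, was at 2.80, 2.72 and 2.65 TPM in wild type and 3.60, 2.48 and 3.62 TPM in the knockout, and the groups overlapped (log2 0.20 ± 0.21, adjusted p = 0.57). In the list of 17 tested bile acid and organic anion transporters, 4 were higher and 4 lower (47.1% called). Abcc4, an apical efflux pump for organic anions, was higher in the knockout at 80.98, 56.2 and 70.1 against 37.8, 37.2 and 31 TPM (log2 0.95 ± 0.12, limma adjusted p = 0.0002). On vehicle Abcc4 measured 59.8, 51.7 and 58.4 TPM in wild type and 49.3, 48.7 and 52.3 TPM in the knockout, and the interaction was 1.12 ± 0.17. The urate transporter Slc22a12 and the urate and xenobiotic pump Abcg2 were higher by 0.44 ± 0.08 and 0.19 ± 0.04 on the log2 scale. Without wild-type GW4064 replicate 2 the transporters called lower numbered 2 and those called higher 3.

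**Figure D2:**
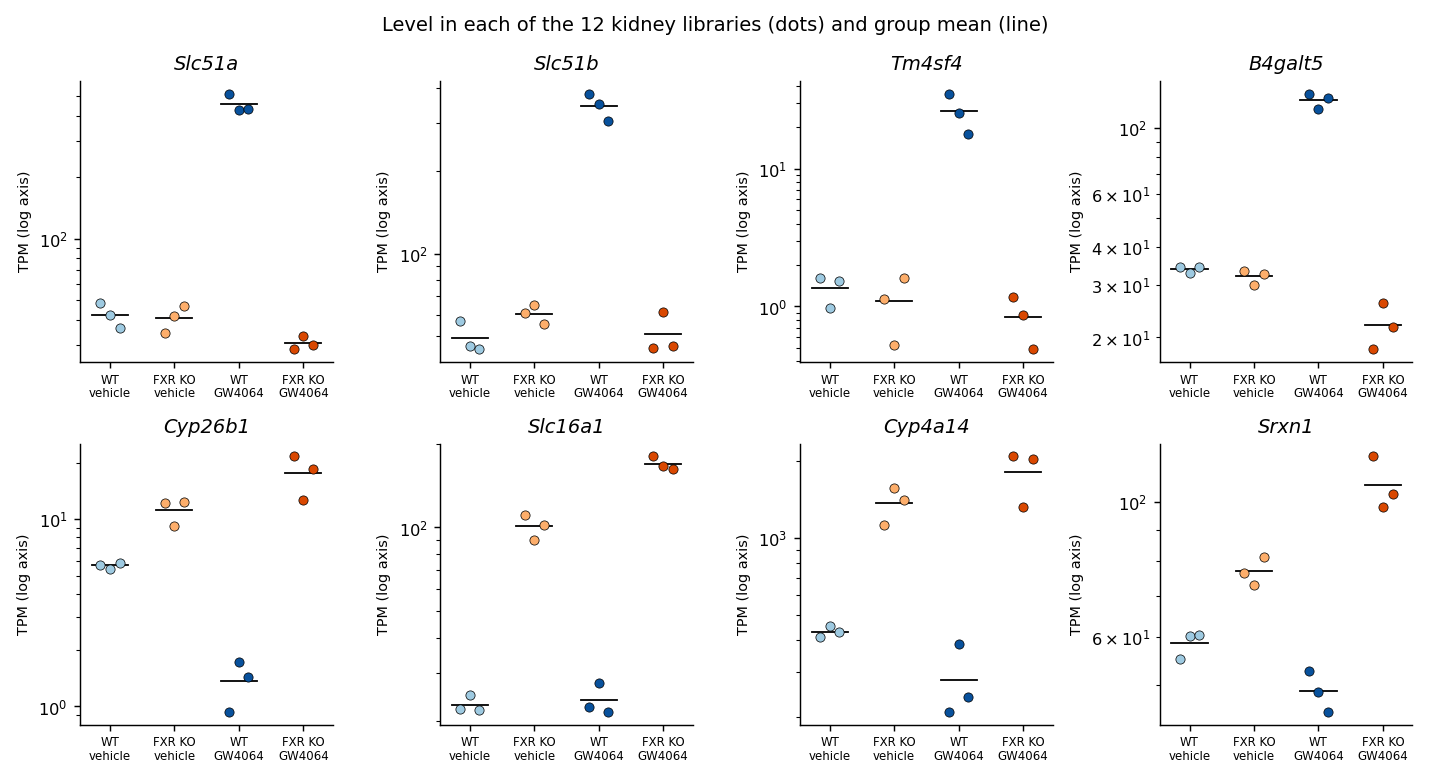
TPM on a log axis (each panel has its own range) in each of the 12 libraries (dots) with the group mean (line) for 8 genes. Slc51a, Slc51b, Tm4sf4 and B4galt5 are high in the wild-type GW4064 group alone, Cyp26b1 is lowest in that group and highest in the knockout GW4064 group, and Slc16a1 and Cyp4a14 are higher in the knockout with and without agonist.

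Ces1g and Nat8f1 were lower with and without agonist. Ces1g, a lipid-metabolising carboxylesterase, gave 32.5, 20.9 and 25.5 TPM in wild type and 3.35, 1.71 and 2.84 TPM in the knockout under GW4064, and 34.96, 21.3 and 26.03 TPM and 1.73, 1.69 and 3.05 TPM on vehicle. Its log2 differences were -3.11 ± 0.26 and -3.40 ± 0.26, and near-identical carboxylesterase genes make its share of reads uncertain. Nat8f1, an acetyltransferase-family gene with close copies, measured 602, 542 and 564 TPM against 120.2, 166 and 124 TPM under GW4064 (log2 -2.07 ± 0.13) and differed by -1.18 ± 0.13 on vehicle. Cyp27b1, the enzyme that activates vitamin D, was at 46.2, 40.3 and 31.3 TPM in wild type and 4.16, 6.64 and 2.45 TPM in the knockout (log2 -3.09 ± 0.56, limma adjusted p = 0.0025). On vehicle its values of 10.4, 13.7 and 2.05 TPM and 5.59, 3.04 and 7.45 TPM overlapped, and the interaction did not pass (adjusted p = 0.0903). Nat8f3, which has close copies, was at 59.9, 48.4 and 51.9 TPM in wild type and 18.99, 0.483 and 22.7 TPM in the knockout, with knockout replicate 2 far below the other two (log2 -2.81 ± 0.88, limma adjusted p = 0.0446). That call was lost on leaving out any 1 of the 3 wild-type GW4064 or the 6 vehicle libraries, with adjusted p up to 0.118. On vehicle Nat8f3 had 57.3, 53.1 and 45.2 TPM in wild type and 33.6, 29.3 and 38.5 TPM in the knockout, without overlap, and the interaction did not pass (adjusted p = 0.363). Cfhr2, a complement factor H-related gene, was at 5.56, 6.61 and 8.87 TPM in wild type and 0, 0.104 and 0.34 TPM in the knockout under GW4064, and at 9.79, 6.60 and 0.319 TPM and 0, 7.63 and 0.183 TPM on vehicle, where both groups held high and low libraries.

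Cyp26b1 led the genes higher in the knockout. It encodes an enzyme that clears retinoic acid, the vitamin A derivative that acts through nuclear receptors of its own (chr6:84571414-84593908). It measured 0.936, 1.72 and 1.44 TPM in wild type and 21.6, 12.7 and 18.5 TPM in the knockout, without overlap. The difference was 9.65-fold (log2 3.27 ± 0.20 SE, limma adjusted p = 1.35e-06). On vehicle the wild-type libraries had 5.68, 5.45 and 5.87 TPM and the knockout libraries 12.2, 9.20 and 12.4 TPM (log2 0.92 ± 0.20, limma adjusted p = 0.0141). The lowest values of Cyp26b1 were thus in wild type with agonist, the highest in the knockout with agonist, and the interaction was 2.35 ± 0.29 (adjusted p = 0.00162).

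Of 26 listed genes of retinoid metabolism 19 were tested, 5 were higher and 0 lower. The 26.3% called is near the 19.1% of all genes, and the median log2 difference of the list was 0.04. Aldh1a1, a retinaldehyde dehydrogenase that makes retinoic acid, measured 7.68, 10.7 and 7.65 TPM in wild type and 35.03, 23.9 and 29.03 TPM in the knockout (log2 1.70 ± 0.15), and its close relative Aldh1a7 14.3, 17.5 and 11.3 TPM and 47.7, 22.6 and 39.1 TPM (log2 1.27 ± 0.23). The retinoic acid receptor gene Rarb was at 11.2, 9.85 and 12.5 TPM and 17.4, 15.4 and 18.5 TPM (log2 0.59 ± 0.11), while on vehicle it differed by -0.17 ± 0.11, with the interaction called (limma adjusted p = 0.0267). The fifth, Rxra, the partner of FXR on DNA, differed by 0.25 ± 0.06 (adjusted p = 0.0187), a call lost without wild-type GW4064 replicates 1 or 3 or knockout GW4064 replicates 2 or 3 (adjusted p 0.0607 to 0.0724). Without knockout GW4064 replicate 3 the list had 4 members higher and 2 lower.

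Of 17 tested genes of lipid-sensing nuclear receptors, 3 were higher and 4 lower, Nr1h4 among them. That is 41.2% called, against 19.1% of all genes tested. The vitamin D receptor gene Vdr was higher at 156, 198 and 166 against 79.4, 89.2 and 91.6 TPM (log2 0.99 ± 0.11, limma adjusted p = 9.28e-05). The pregnane X receptor gene Nr1i2 had 26.1, 27.2 and 19.4 TPM in wild type and 11.8, 14.6 and 13.6 TPM in the knockout under GW4064 (log2 -0.83 ± 0.13), but 7.90, 8.01 and 7.84 TPM and 11.6, 14.5 and 11.9 TPM on vehicle (log2 0.64 ± 0.13). It is 1 of the 32 genes called in opposite directions, with an interaction of -1.47 ± 0.18 (limma adjusted p = 0.00164). The estrogen-related receptor gene Esrra was lower in both conditions (-0.37 ± 0.06 and -0.20 ± 0.06). Without wild-type GW4064 replicate 1 or knockout GW4064 replicate 2 only 1 of the list was called higher.

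Slc16a1 encodes the monocarboxylate transporter MCT1, which carries lactate, pyruvate and ketone bodies (chr3:104638664-104658462). It measured 22.5, 27.6 and 21.7 TPM in wild type and 180.2, 166 and 163 TPM in the knockout, 7.0-fold apart (log2 2.81 ± 0.10 SE, limma adjusted p = 1.12e-08). On vehicle the values were 22.1, 24.8 and 22.04 TPM and 111, 90.4 and 102 TPM (log2 2.11 ± 0.10), so all 6 knockout libraries lay above all 6 wild-type libraries. The interaction of 0.70 ± 0.14 was called (adjusted p = 0.0192). Of 16 tested genes of the Slc16 family, their partner and sodium-coupled relatives, 6 were higher and 3 lower. That is 56.25% called, against 19.1% of all genes tested. Slc16a13, Slc16a10, an aromatic amino acid carrier, and Slc16a6 were higher by 0.82 ± 0.07, 0.77 ± 0.10 and 0.68 ± 0.13. Slc16a4 was lower by a log2 difference of -0.35 ± 0.06, and Slc5a8, the sodium-coupled lactate transporter of the brush border, by -0.90 ± 0.05 (316, 331 and 334 TPM in wild type and 172, 168 and 186 TPM in the knockout). Slc16a7, the MCT2 gene, did not pass (log2 -0.19 ± 0.07, adjusted p = 0.0988), although it did without knockout vehicle replicate 2 (adjusted p = 0.0342).

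Most measured genes of fatty acid oxidation were higher in the knockout. Many are textbook targets of PPAR-alpha, the receptor that is activated by fatty acids in fasting. Of 40 listed, 38 were tested, 30 were higher and 2 lower (84.2% called, against 19.1% of all genes tested). The median log2 difference was 0.36. On vehicle 25 were higher and 1 lower, with a median of 0.34. Cyp4a14, a microsomal fatty acid hydroxylase, measured 209, 384 and 239 TPM in wild type and 2086, 1318 and 2038 TPM in the knockout (log2 2.73 ± 0.22, limma adjusted p = 9.28e-06). Fabp1, the fatty acid binding protein of liver and tubule, gave 5.80, 5.05 and 4.58 TPM against 60.6, 26.9 and 30.2 TPM (log2 2.73 ± 0.27). Pdk4, which shuts off pyruvate entry into the citric acid cycle, stood at 76.2, 167 and 109 TPM and 586, 548 and 659 TPM (log2 2.41 ± 0.24). The knockout was higher in every library in these 3 genes.

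Enzymes of both peroxisomes and mitochondria were among them. Ehhadh, a peroxisomal enzyme with 2 activities, was at 942, 1159.8 and 954 TPM in wild type and 2799.6, 2285 and 2657 TPM in the knockout (log2 1.34 ± 0.09). Cpt2, Eci1 and the thioesterase gene Acot2, all mitochondrial, were higher by 0.57 ± 0.05, 0.80 ± 0.08 and 1.24 ± 0.11. Plin2, the coat of lipid droplets, rose from 166, 191 and 156 TPM in wild type to 936, 743 and 743 TPM in the knockout (log2 2.23 ± 0.16). The 2 that were lower were the coactivator gene Ppargc1a (-0.31 ± 0.05) and Acot3 (-0.63 ± 0.13). Vnn1, Cyp4a10 and Cyp4a32 were higher by 0.87 ± 0.07, 1.24 ± 0.15 and 2.23 ± 0.44, with close copies making the last pair uncertain. Cyp4a32 measured 32.3, 7.61 and 37.7 TPM in wild type, with replicate 2 far below the others, and 107, 81.6 and 118 TPM in the knockout. Its lowest log2 difference over the alternatives was 1.52, and on vehicle it did not pass (0.59 ± 0.44).

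**Figure D3:**
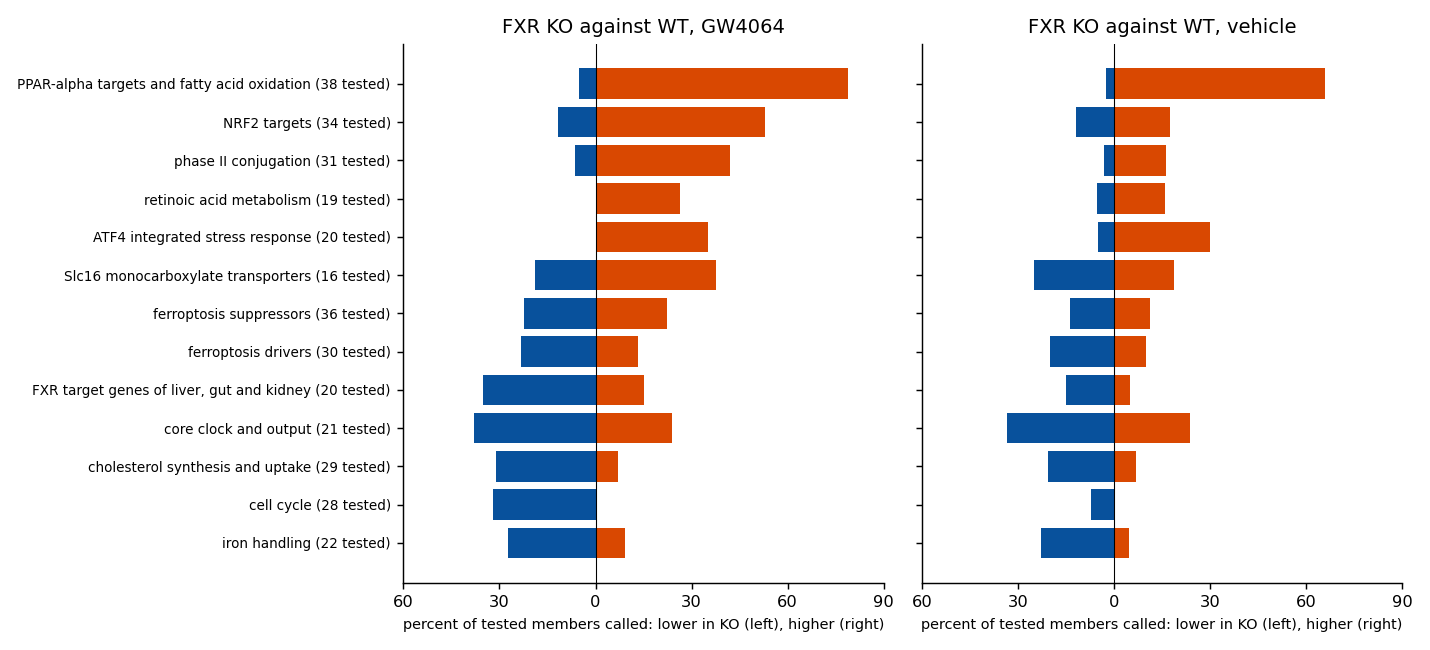
Percent of tested members called higher (orange, to the right) or lower (blue, to the left) in the knockout for 13 gene lists, under GW4064 (left panel) and on vehicle (right panel), with the number tested in parentheses. Fatty acid oxidation is the longest bar to the right in both panels (30 and 25 of 38 genes), and the NRF2 bar is longer under GW4064 (18 of 34) than on vehicle (6 of 34).

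NRF2 is the transcription factor of the response to oxidants and electrophiles. Of its 35 listed targets 34 were tested, 18 were higher and 4 lower (64.7% called, against 19.1% of all genes tested). The median log2 difference was 0.43 under GW4064. On vehicle 6 were higher and 4 lower, with a median of 0.04, and 9 were called in the interaction. Srxn1, sulfiredoxin, measured 52.7, 48.8 and 45.2 TPM in wild type and 119, 98.1 and 103 TPM in the knockout (log2 1.11 ± 0.08, limma adjusted p = 3.61e-06, interaction 0.72 ± 0.11). Nqo1, a quinone reductase, gave 132, 137 and 116 TPM and 302, 213 and 261 TPM (log2 1.00 ± 0.13), and the carbonyl reductase Cbr3 2.56, 2.005 and 2.85 TPM and 19.1, 9.70 and 10.3 TPM (log2 2.13 ± 0.23). Txnrd1, Cbr1, Gstm1 and Gstp1 were higher by 0.71 ± 0.06, 0.76 ± 0.10, 0.63 ± 0.08 and 0.79 ± 0.06, each with the interaction called, and glutathione transferases have close copies. Mgst1 was higher by 0.98 ± 0.10 and the heme oxygenase gene Hmox1 by 1.40 ± 0.29 (34.9, 51.95 and 24.1 TPM against 101, 90.6 and 89.5 TPM). The 4 that were lower were Ces1g and Osgin1, above, with Gsr (-0.37 ± 0.06) and Gclm (-0.31 ± 0.05). Of 31 tested conjugation genes of phase II metabolism, several of them on both lists, 13 were higher and 2 lower. The share called was 48.4%, against 19.1% of all genes tested.

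Genes of ferroptosis did not share a direction. Of 36 tested suppressors 8 were higher and 8 lower, and of 30 tested drivers 4 were higher and 7 lower. The shares called were 44.4% and 36.7%, against 19.1% of all genes tested. Among all genes at a mean of 100 TPM and above the share was 35.0%, and these lists were not set against genes of like level. Gpx4, the peroxidase that repairs oxidised membrane lipids, was at 1205, 1222 and 1209 TPM in wild type and 1410.4, 1289 and 1315 TPM in the knockout, without overlap but just short of the threshold (log2 0.14 ± 0.05, limma adjusted p = 0.0505). Without knockout GW4064 replicate 2, or without wild-type vehicle replicate 1, it passed (adjusted p = 0.0429 and 0.0457). Slc7a11, the cystine importer, was at 0.0801, 0.144 and 0.338 TPM in wild type and 0.268, 0.166 and 0.065 TPM in the knockout, too low to be tested.

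Aifm2 (FSP1), which protects membranes through reduced coenzyme Q, was lower in the knockout. It measured 39.1, 40.9 and 35.5 TPM in wild type and 22.8, 23.7 and 24.6 TPM in the knockout under GW4064 (log2 -0.69 ± 0.08, limma adjusted p = 0.000124). On vehicle it had 25.5, 23.6 and 22.7 TPM and 23.6, 28.3 and 23.9 TPM, so the wild-type GW4064 libraries were above all others, and the interaction was -0.76 ± 0.11 (adjusted p = 0.00472). Acsl4, which loads membranes with polyunsaturated fatty acids and so promotes ferroptosis, was higher at 127, 118 and 118 against 55.5, 56.99 and 55.8 TPM (log2 1.10 ± 0.09), and also on vehicle (0.70 ± 0.09). The glutathione genes differed in direction. Gclc was higher by 0.47 ± 0.11, a call lost without wild-type GW4064 replicate 1 (adjusted p = 0.0506), while Gclm, Gss and Gsr were lower by a log2 difference of -0.31 ± 0.05, -0.30 ± 0.05 and -0.37 ± 0.06. With median-of-ratios scaling the suppressors numbered 10 higher and 5 lower, and 5 were lower without wild-type GW4064 replicates 1 or 2.

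Iron genes and mitochondrial redox genes were also measured. The ferritin heavy chain gene Fth1 was higher at 3699, 3719 and 3353 against 2450.2, 2751 and 2564 TPM (log2 0.47 ± 0.08), and the transferrin receptor gene Tfrc was lower at 67.8, 56.4 and 55.3 against 97.02, 94.6 and 119 TPM (log2 -0.79 ± 0.11). In all, 2 of 22 tested iron genes were higher and 6 lower (36.4% called, against 19.1% of all genes tested). At a mean of 100 TPM and above, 35.0% of all genes were called. Without knockout GW4064 replicate 2, 4 were higher. Nnt, the mitochondrial transhydrogenase that makes NADPH, gave 280, 279.6 and 267 TPM in wild type and 116, 123 and 114 TPM in the knockout (log2 -1.22 ± 0.04, limma adjusted p = 1.28e-08). On vehicle it gave 268, 277 and 276 TPM and 122, 119.6 and 130.3 TPM (log2 -1.14 ± 0.04), nearly the same difference. Nnt is known as a gene that differs between C57BL/6 substrains, and strain and genotype cannot be told apart here.

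The circadian clock of the kidney is a loop in which ARNTL (BMAL1) with CLOCK or NPAS2 drives the Per, Cry, Nr1d and Dbp genes. Products of the Per, Cry and Nr1d genes then repress the loop. Of 21 tested clock and output genes 5 were higher and 8 lower in the knockout under GW4064, and 5 and 7 on vehicle. Under GW4064 that is 61.9% called, against 19.1% of all genes tested. Npas2, 1 of the 5, was tested only through the knockout, where it was high. Arntl measured 3.11, 4.71 and 2.86 TPM in wild type and 17.96, 20.6 and 32.3 TPM in the knockout (log2 2.55 ± 0.26, limma adjusted p = 4.42e-05), Npas2 gave 0.574, 0.78 and 0.266 TPM against 4.32, 4.73 and 7.43 TPM, and Clock differed by 0.37 ± 0.06. Nfil3, a repressor at D-box sites, was higher by 1.52 ± 0.23. Dbp, the activator at those sites, was low at 69.4, 62.9 and 92.1 TPM in wild type and 10, 13.3 and 6.38 TPM in the knockout (log2 -2.89 ± 0.26), and its relative Tef went from 234, 216 and 225 TPM to 116, 124 and 109.6 TPM (log2 -0.95 ± 0.07).

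Several output genes were lower as well. Per3 measured 46.1, 42.1 and 42.6 TPM in wild type and 16.7, 13.4 and 10.7 TPM in the knockout (log2 -1.67 ± 0.14), Nr1d2 138, 118 and 136 TPM and 62.4, 46.3 and 45.9 TPM (log2 -1.35 ± 0.11), and Ciart 3.63, 3.73 and 7.48 TPM and 1.17, 1.83 and 0.5 TPM (log2 -1.72 ± 0.31). Per2 and Usp2 differed by -0.96 ± 0.19 and -0.96 ± 0.14. On vehicle the log2 differences of Arntl, Dbp, Per3 and Ciart were 2.37 ± 0.26, -2.62 ± 0.26, -1.18 ± 0.14 and -2.63 ± 0.31, the same signs as under GW4064. None of these 4 was called in the interaction. Npas2 had 0.337, 0.496 and 0.297 TPM in wild type and 2.78, 1.84 and 2.62 TPM in the knockout on vehicle. Nr1d1 was lower under GW4064 by a log2 difference of -1.27 ± 0.33 (limma adjusted p = 0.0195), which did not pass without knockout GW4064 replicate 2 or wild-type GW4064 replicate 3 (0.0673 and 0.0727). Cry1 was higher by 0.46 ± 0.13, which did not pass without the same 2 libraries (0.107 and 0.0931). The hour at which each group was collected was not part of the labels, and its part in these differences was not tested.

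**Figure D4:**
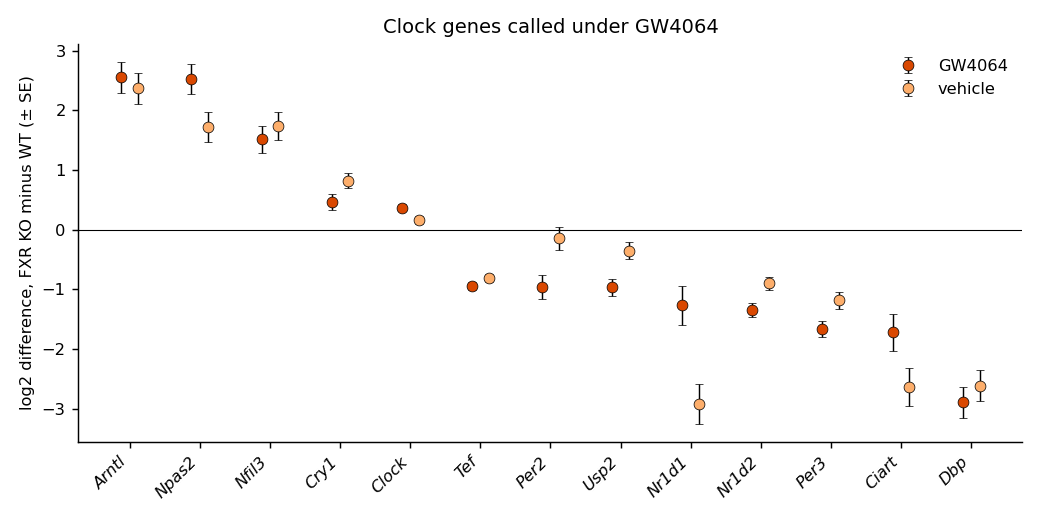
Log2 difference between knockout and wild type (y axis, points with SE, n = 3 per group) of the 13 clock genes called under GW4064, under GW4064 (dark) and on vehicle (light). Arntl and Npas2 are above 1.5 in both, Dbp is below -2.5 in both, and Nr1d1 is at -1.27 under GW4064 and -2.92 on vehicle.

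The windows of 2 of the genes that fell are shown because they carry the clock motifs in several copies (RefSeq, GRCm38.p6, minus strand, Per3 chr4:151044616-151044915 and Ciart chr3:95882179-95882478). Capitals mark the D-box TTATGTAA in Per3 and the E-box CACGTG in Ciart.
Per3: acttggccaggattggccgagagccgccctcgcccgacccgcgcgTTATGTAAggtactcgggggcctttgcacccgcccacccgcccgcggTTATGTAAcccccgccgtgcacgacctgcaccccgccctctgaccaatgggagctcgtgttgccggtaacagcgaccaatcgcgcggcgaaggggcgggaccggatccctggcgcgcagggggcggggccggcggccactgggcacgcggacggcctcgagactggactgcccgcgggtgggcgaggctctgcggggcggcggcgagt
Ciart: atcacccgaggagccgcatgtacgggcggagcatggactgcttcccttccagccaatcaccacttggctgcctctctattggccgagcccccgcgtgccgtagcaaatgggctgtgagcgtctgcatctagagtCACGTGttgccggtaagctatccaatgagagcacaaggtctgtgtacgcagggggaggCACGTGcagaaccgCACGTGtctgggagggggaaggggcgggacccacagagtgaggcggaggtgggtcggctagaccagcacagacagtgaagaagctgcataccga
Per3 holds 2 D-boxes and Ciart 3 E-boxes. The D-box was in 1.37% of the windows of genes called lower, 0.57% of those called higher and 0.615% of those tested, and the E-box was in 9.86%, 9.88% and 9.65%. A match is a description of these 300 bases and not of a bound site.

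Genes of glucose, sterol and amino acid metabolism included both directions. Pck1, the first enzyme of gluconeogenesis, was at 2906, 4428 and 3511 TPM in wild type and 5908, 8128 and 8098 TPM in the knockout (log2 1.03 ± 0.19, limma adjusted p = 0.0031). On vehicle it was at 7146, 8548 and 7411 TPM and 5323, 8441 and 5835 TPM, with overlap, so the low values were those of the wild-type GW4064 libraries (interaction 1.30 ± 0.27, adjusted p = 0.0257). Of 29 tested genes of cholesterol synthesis and uptake, 9 were lower and 2 higher (37.9% called, against 19.1% of all genes tested). Hmgcs1 gave 617, 607 and 617 TPM against 370.3, 405 and 399 TPM (log2 -0.65 ± 0.04), and Idi1, Mvd and Dhcr7, later steps of the pathway, were lower by a log2 difference of -0.80 ± 0.07, -0.84 ± 0.08 and -0.88 ± 0.14. The fatty acid elongase Elovl6 was lower by -0.63 ± 0.09.

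Of 20 tested targets of ATF4, the factor of the amino acid and protein stress response, 7 were higher and 0 lower. The share called was 35.0%, against 19.1% of all genes tested. On vehicle 6 were higher and 1 lower, with a median log2 difference of 0.26, against 0.40 under GW4064. Of the 20, 1 was tested through 1 genotype alone. Asns, asparagine synthetase, measured 1.72, 3.75 and 2.54 TPM in wild type and 9.52, 9.85 and 7.41 TPM in the knockout (log2 1.61 ± 0.22), and Psat1, of serine synthesis, 39.7, 40.2 and 40.96 TPM and 106, 105 and 115 TPM (log2 1.42 ± 0.15). Gdf15 and Sesn2 were higher by 1.54 ± 0.21 and 0.96 ± 0.10. Without knockout GW4064 replicate 2, 4 of the ATF4 list were higher. Gdf15 and Sesn2 are also on a list of p53 targets, of which 19 were tested, 4 were higher and 2 lower (31.6% called). Cdkn1a (p21), an inhibitor of the cell cycle, gave 1.64, 1.49 and 1.66 TPM and 9.001, 9.04 and 7.39 TPM (log2 2.09 ± 0.15) and was higher on vehicle too (1.58 ± 0.15).

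Of 28 tested cell cycle genes 9 were lower and 0 higher (32.1% called, against 19.1% of all genes tested). Mki67, which marks dividing cells, was at 8.21, 8.38 and 9.93 TPM in wild type and 4.73, 4.31 and 2.80 TPM in the knockout (log2 -1.09 ± 0.24), Ccnd1 at 122, 120.2 and 118 TPM and 73.95, 69.5 and 51.8 TPM (log2 -0.90 ± 0.15), and Mcm6, a replication helicase subunit, differed by -0.54 ± 0.11. The count was 4 without knockout GW4064 replicate 3, without wild-type GW4064 replicate 2 or without wild-type GW4064 replicate 3. In whole tissue, fewer cells of a type and less RNA per cell cannot be told apart. Of 18 tested genes of tubule injury and repair, 2 were higher (Cdkn1a and Cxcl1) and 1 lower (Plau). The 16.7% called is near the 19.1% of all genes tested. Without knockout GW4064 replicate 2, 4 of them were higher. The tubule injury markers Havcr1 (KIM-1; 4.09, 2.15 and 3.61 TPM in wild type and 3.02, 1.89 and 0.907 TPM in the knockout) and Lcn2 (NGAL; 4.51, 2.44 and 5.10 TPM and 8.14, 4.66 and 7.43 TPM) overlapped between the groups and were not called (limma adjusted p = 0.216 and 0.122). The apical phosphate transporter gene Slc34a3 was lower at 36.9, 42.3 and 33.9 against 63.5, 63.8 and 60.05 TPM (log2 -0.73 ± 0.07, interaction -0.55 ± 0.10), as was Cubn, the endocytic receptor of the brush border (log2 -0.40 ± 0.04). Both belong to a list of vitamin D and mineral genes, of which 20 were tested, 2 were higher and 7 lower, and 4 were lower without wild-type GW4064 replicates 1 or 3 or knockout GW4064 replicate 3.

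Tested genes near Nr1h4 were counted by distance, since the disrupted allele travels with the DNA around it. Within 5 Mb of Nr1h4, 22 of 55 other tested genes (40.0%) were called under GW4064, against 112 of 489 (22.9%) beyond 10 Mb and 19.1% of all genes. From 5 to 10 Mb the count was 25 of 146 (17.1%). The whole window within 10 Mb thus had 47 of 201 called (23.4%), close to the share beyond it. On vehicle 19 of the 55 (34.5%) were called, 14 of them in both conditions and in the same direction. The higher share within 5 Mb was not tested. The 22 include Amdhd1, which was tested only through wild type, so its part in these counts is a description. Gas2l3, a cytoskeletal linker gene and the nearest tested neighbour, measured 2.53, 2.54 and 3.92 TPM in wild type and 13.4, 13.1 and 14.7 TPM in the knockout (log2 2.05 ± 0.14). Amdhd1, of histidine breakdown, gave 4.92, 5.65 and 6.72 TPM and 0.204, 0 and 0 TPM, and 2.33, 3.66 and 2.94 TPM and 0.125, 0 and 0.0895 TPM on vehicle. Igf1, Stab2, Slc5a8 (above), Lta4h and Scyl2 were lower by a log2 difference of -1.33 ± 0.22, -1.11 ± 0.17, -0.90 ± 0.05, -0.38 ± 0.05 and -0.33 ± 0.04, and Cfap54 was higher by 1.39 ± 0.14. Cry1, described above, also lies within 5 Mb. The knockout allele and the DNA linked to it cannot be told apart in this design.

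**Figure D5:**
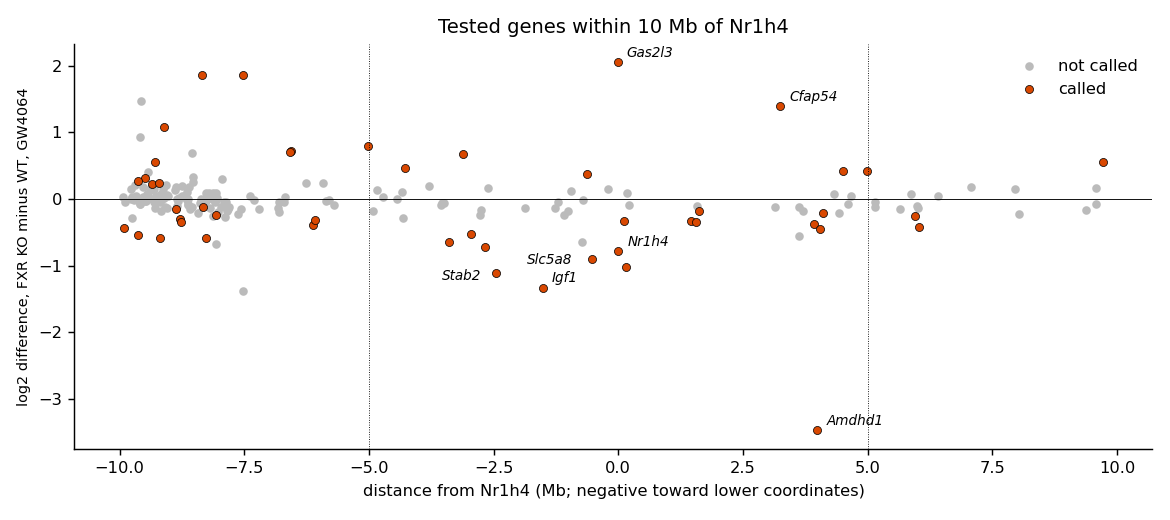
Log2 difference between knockout and wild type under GW4064 (y axis) of the tested genes within 10 Mb of Nr1h4, by distance from it in Mb (x axis), with called genes in orange and dotted lines at 5 Mb. Gas2l3 at 2.05 is the highest value in the window, and Amdhd1, the lowest, is at -3.47 with the pseudocount of 0.5 and at -5.33 with 0.1. Amdhd1 was tested only through wild type, so its value is a description.

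Fat and other tissue were measured beside these differences, since the kidney lies in fat. Of 11 tested adipocyte markers 1 was called (9.09%, against 19.1% of all genes tested), Lipe, the hormone-sensitive lipase gene (log2 0.80 ± 0.14). The summed level of the adipocyte list was 193, 293 and 219 TPM in the wild-type and 367, 246 and 282 TPM in the knockout GW4064 libraries, with overlap. Without wild-type GW4064 replicate 2, 3 of the 11 were called. When a score of the listed markers Adipoq, Plin1, Cfd and Cidec alone entered the fit 2141 genes were called, and the interaction fell from 469 to 208. Of 7 tested urothelium markers 0 were called, 2 without knockout GW4064 replicate 2. Their sum was 25.8 to 27.97 TPM in wild type and 26.97 to 67.5 TPM in the knockout. Of the 10 adrenal cortex markers 4, and of the 10 skeletal muscle markers 5, were at 0 in all 6 libraries.

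Further genes of the ranked lists were higher in both conditions. Cyp2a4, a steroid hydroxylase with a close copy, measured 93.7, 82.5 and 74.2 TPM in wild type and 381, 539 and 491 TPM in the knockout (log2 2.48 ± 0.15), and 2.01 ± 0.15 on vehicle. Apoh, beta-2-glycoprotein I of plasma, gave 1.52, 2.45 and 1.86 TPM and 5.54, 14.9 and 16.97 TPM (log2 2.28 ± 0.33), and 2.42 ± 0.33 on vehicle. Of the 15 genes ranked highest, 14 were also called higher on vehicle and 3 in the interaction, with Cyp26b1 and Slc16a1 among them. Npas2, tested only through the knockout, is 1 of the 15. Of the 15 ranked lowest, with Zdhhc19, Amdhd1 and Cfhr2 among them, 6 were also called lower on vehicle and 9 in the interaction. Zdhhc19, Amdhd1 and Cfhr2 were tested only through wild type, so their part in these counts is a description.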

How the data were processed

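Total RNA of kidney was sequenced with a stranded kit, per the labels' protocols. The deposited tables give TPM, FPKM and read coverage per transcript row, as the authors computed them. The submitters' processing notes name HISAT2, StringTie, Cufflinks and mm10, with no role or version. The deposited TPM values were summed over rows of 1 gene identifier. FPKM served as an alternative, and the deposited coverage signal gave the mapped gigabases (2.86 to 4.27 over the 12 libraries). Read counts were not used here, so the precision of low values is unknown.

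log2(TPM + 0.5) was fitted with limma 3.58.1 in R 4.3.3 (variance trend, 12 libraries, 1 mean per group, 8 residual degrees of freedom). P-values were adjusted by Benjamini-Hochberg over 14127 genes, with calls under 0.05. Log2 differences are knockout minus wild type, ± SE, with 3 libraries per group. The pseudocount of 0.5 understates differences of low genes. Fold values are ratios on the scale of TPM + 0.5. Tables were made with Python 3.11.15, numpy 2.4.6 and pandas 2.3.3, and figures with matplotlib 3.10.9. The fit was tested on simulated data.

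Named genes were a fixed set, the 15 called genes per direction with the largest difference (a mean of 5 TPM in 1 group, no overlap, no gene models), the 3 list members of lowest p per direction, and genes within 10 Mb of Nr1h4. Further list members were named after their values were seen, as were Zdhhc19's and Slc51b's neighbours. The comparison, genes and lists were chosen with earlier results of these data known. A few genes are not reported here. Lists are described by counts, with no set test. Under GW4064 the shares of all genes tested were 7.28% called higher and 11.8% called lower. The share called grew with level, and list shares were not set against genes of like level. Alternatives changed pseudocount, filter, scaling, unit, samples, variance model and covariates, and left out each library. Promoter windows came from RefSeq (GRCm38.p6), with 10876 tested genes matched.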

Additional observations from a re-analysis of the deposited data

Results flagged for a closer look

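In 35 named genes the difference between knockout and wild type under GW4064 was of another size than on vehicle (limma interaction, adjusted p under 0.05, 3 libraries per group). Values are the log2 difference under GW4064 minus that on vehicle. Among FXR targets, transporters and their neighbours, the values were -3.83 for Slc51a, -3.05 for Slc51b, -3.73 for Zdhhc19 (tested only through the wild-type group where it is high), -4.01 for Tm4sf4, -2.12 for Fgb, -1.69 for C3 and 1.12 for Abcc4. Other genes of the largest differences gave -2.39 for B4galt5, -1.45 for Serpinc1, -1.84 for Etnppl, -0.89 for Nat8f1, 2.35 for Cyp26b1 and 0.70 for Slc16a1. Receptors and the ferroptosis suppressor gave 0.77 for Rarb, -1.47 for Nr1i2 and -0.76 for Aifm2.

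The NRF2 targets were at 0.38 for Txnrd1, 0.72 for Srxn1, 0.64 for Gstm1, 0.54 for Gstp1 and 0.61 for Cbr1. Metabolic genes were at 1.30 for Pck1, -0.28 for Hmgcs1, -0.64 for Idi1, -0.51 for Mvd and 0.60 for Slc16a10. Tubule transport genes were at -0.55 for Slc34a3 and -0.30 for Cubn, and Scyl2, near Nr1h4, at -0.30. The genes chosen after their values were seen were at -1.99 for Tstd2, -0.99 for Narf, -0.50 for Wdfy1, 1.04 for Ndrg1, -0.32 for Slc6a8 and -0.55 for Kmo.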

How the results depend on the processing

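Under GW4064 the count of 2700 genes lay between 2141 and 2825 under the alternatives that kept all GW4064 libraries, with 2670 under a replicate block, and between 1745 and 2781 when 1 library was left out. On vehicle the count of 1901 was 1264 after quantile normalization (670 higher, 594 lower) and 1799 under the replicate block, and 930 to 1923 with 1 library left out. The interaction count of 469 (217 higher, 252 lower) was 208 when the fat marker score entered the fit and 457 under the replicate block, and 220 to 541 with 1 library left out. After median-of-ratios scaling the interaction split was 145 higher and 358 lower, after quantile normalization 168 and 285, and with FPKM 174 and 286. The split under GW4064 after quantile normalization was 1329 and 1334, and that on vehicle with FPKM 546 and 1025. Same-numbered libraries of different groups correlated at -0.114 to 0.073 in their deviations, and differently numbered ones at -0.111 to 0.158. The labels give the numbers no meaning, and these values cannot say whether libraries were paired. Of 127 called genes given with values in the text, 120 kept their call in every alternative run, the exceptions being Nat8f3, Cfhr2, Rxra, Nr1d1, Cry1, Gclc and Tctex1d2, and none of the 127 changed direction. Zdhhc19, Amdhd1 and Npas2 are among the 120. Each passed the filter through 1 genotype alone, so their kept calls are a description with no test. Tctex1d2 missed the threshold in 13 alternatives (limma adjusted p 0.0508 to 0.137). Rxra, Cry1 and Gclc also missed the threshold with only the 6 GW4064 libraries in the limma fit (adjusted p = 0.0508, 0.0743 and 0.0532). Gpx4 passed in 7 alternatives, with limma adjusted p from 0.0324 to 0.0494, and over all of its alternatives the adjusted p was 0.0324 to 0.676. Rasl12 passed in 4 alternatives (limma adjusted p 0.0402 to 0.0489). Pcyt1a passed after quantile normalization and under the replicate block (limma adjusted p = 0.0445 and 0.0298). The causes of these changes were not tested.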

Other observations

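Some single genes outside the account above also differed. They were chosen after their values were seen and stand for no pathway as a whole. Gatm, which makes the precursor of creatine, measured 689.6, 689 and 852 TPM in wild type and 199, 283 and 204 TPM in the knockout under GW4064 (log2 -1.71 ± 0.27 SE, limma adjusted p = 0.00095, n = 3 per group). Gamt, the next and last step, was lower by a log2 difference of -0.59 ± 0.12, and the creatine importer Slc6a8 by -0.37 ± 0.06, with no overlap in any of the 3 genes. Kynu and Kmo, both of tryptophan breakdown through kynurenine, were lower too. Kynu had 46, 41.6 and 27.6 TPM in wild type and 11.2, 10.6 and 8.68 TPM in the knockout (log2 -1.84 ± 0.22), and Kmo 211, 186 and 183 TPM and 125, 134 and 132 TPM (log2 -0.56 ± 0.06). Tstd2, a rhodanese-domain gene, gave 126, 107 and 98.4 TPM in wild type and 25.3, 27.4 and 27.03 TPM in the knockout (log2 -2.03 ± 0.10), beside 22.97 to 29.1 TPM in the vehicle libraries. Narf had 105, 98.2 and 90.7 TPM in wild type and 28.2, 28.8 and 29.6 TPM in the knockout (log2 -1.74 ± 0.06), and Wdfy1, a phosphoinositide-binding protein gene, differed by -1.65 ± 0.05. Ndrg1, an abundant stress-responsive transcript, was higher at 3228, 3644 and 3863 against 774, 1047 and 959.8 TPM (log2 1.96 ± 0.12).

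Immune, matrix and glomerular genes were measured as well. Of 14 tested MHC genes 4 were higher and 0 lower, all of class II (28.6% called, against 19.1% of all genes tested). H2-Aa and H2-Eb1 differed by 0.64 ± 0.14 and 0.81 ± 0.15, and by 0.65 ± 0.14 and 0.73 ± 0.15 on vehicle. Of 11 tested leukocyte markers 3 were higher and 1 lower (36.4% called), 2 of the 3 tested only through the knockout. The summed level of the 17 listed was 148 to 157 TPM in wild type and 152 to 192 TPM in the knockout under GW4064, and on vehicle 153, 135 and 150.5 TPM in wild type and 179, 178 and 184 TPM in the knockout. Its part in the MHC values was not tested. The MHC count was 2 without wild-type GW4064 replicate 2 and 7 without knockout vehicle replicate 3. Collagen genes were lower: Col3a1 gave 69.99, 50.98 and 76.03 TPM in wild type and 27.7, 28.6 and 17.6 TPM in the knockout (log2 -1.41 ± 0.21), and Col1a1 and Col1a2 differed by -1.53 ± 0.24 and -0.71 ± 0.16. These were the 3 called of 13 stromal markers (23.1%), whose sum was 428 to 510.1 TPM in wild type and 344 to 435 TPM in the knockout. On vehicle 6 of the 13 were lower and 0 higher. The median log2 difference of these 13 was -0.38 on vehicle and -0.23 under GW4064. Of 12 podocyte markers 5 were lower (41.7%), among them Ptpro, a receptor phosphatase of the podocyte (-0.65 ± 0.12). On vehicle 8 of the 12 were lower and 0 higher, with a median log2 difference of -0.36, against -0.21 under GW4064. The podocyte count under GW4064 was 2 or 3 without wild-type GW4064 replicates 1, 2 or 3 in turn, or without knockout GW4064 replicates 1 or 3. Of 19 tested androgen-dependent or sex-dependent genes 5 were higher and 8 lower (68.4% called, against 19.1% of all genes tested). Examples are Cyp4a12a (1.71 ± 0.23), which has close copies, and Cyp7b1 (1.10 ± 0.17) against Odc1 (-0.51 ± 0.09) and Slc7a13 (-0.56 ± 0.11). Of the list, 5 were lower without wild-type GW4064 replicate 2.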
